A study of Mus musculus with 17 samples.

Results

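The comparison set hippocampus RNA of mice fed a fish oil against hippocampus RNA of mice fed a purified diet without it. Its members are the 4 arrays that the titles mark as hippocampus of the fish oil and the control diet, out of 17 arrays in all: 1 array of each diet on either of the 2 types of oligonucleotide array used, chip A and chip B. Each array gives 1 intensity per probe set, a group of short probes for the same transcript. Probe sets were kept where their mean over the hippocampus arrays of the chip reached the chip's median, which left 3265 of 6529 on chip A and 3273 of 6540 on chip B. Those with exactly 1 gene symbol covered 3525 genes.

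All mice were males of the outbred NMRI stock, housed 10 per cage, given purified diets from the first day and killed on day 57 or 58, after up to 6 h without food. The fat of every diet was a blend of milk fat, palm olein, sunflower oil, soybean oil and medium chain triacylglycerol oil. In the fish oil diet, 1.9% fish oil, which supplied 0.5% of the diet as docosahexaenoate (DHA), took the place of part of the medium chain oil. More fish oil and less medium chain oil thus cannot be told apart. The soybean oil, 1.5% of every diet, is itself a source of a plant precursor of DHA, so the control diet was not free of such fatty acids. Hippocampus arrays of 2 further diets, 1.1% of a fungal oil rich in arachidonate and both oils together, served as a measure of how far arrays of this tissue lie apart. For both oils, chip B alone was analysed here.

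Each diet was given to 10 mice, per the labels, and 5 mice picked from them at random went into the hippocampus measurements. The labels used here do not say whether their RNA was pooled. Each diet gave 1 hippocampus RNA, so no difference below has a replicate check, and none carries a p-value. Since 10 mice shared a cage and 10 a diet, cage, array and diet cannot be told apart.

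DHA is among the most abundant polyunsaturated fatty acids of brain, where it sits in the phospholipids of neuronal and synaptic membranes. Brain takes it up from blood with the help of transport and fatty acid binding proteins, and holds on to it when the diet supplies little. In liver, such fatty acids are known to act as ligands of peroxisome proliferator-activated receptors, which turn on fatty acid oxidation, and to lower the activity of the SREBP factors, which turn on lipid synthesis.

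Markers of neurons and of liver told these arrays from liver, though they do not tell hippocampus from other parts of brain. Snap25, of the synaptic vesicle fusion machinery, read 831 on the control array and 815 on the fish oil array. Eno2, the neuronal enolase, read 1695 and 1666, and Nefl, a neurofilament subunit, 999 and 984. In the liver control arrays the 3 probe sets lay between -38 and 22. Alb, the liver's serum albumin, read 59 and -21 in hippocampus against 12999 and 10590 in liver. Camk2a, a kinase of excitatory neurons, read 100 and 6 and did not pass the filter on its dim probe set, so that marker gives no check. Nor does Apoa1, also taken as a liver marker. It was low in the liver controls too, at -13 and -24 on chip A and 107 and 97 on chip B. The 3-prime to 5-prime ratio of the Gapdh control probe sets on chip A, a sign of RNA quality, was 0.84 on the control array, 0.906 on the fungal oil array and 0.91 on the fish oil array. For actin the ratios were 1.39, 1.55 and 1.55, so the control array read lower than both oil arrays in each. The part of these ratios in the differences below was not tested. On chip B the fish oil array had 0 control probe sets with values, so neither ratio could be taken for it. Its RNA quality thus had no such check.

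Few probe sets of the hippocampus stood apart between the fish oil and control arrays, and those that did were mostly dim. On chip A, 55 kept probe sets (1.68%) read at least 2-fold higher with fish oil and 33 (1.01%) at least 2-fold lower. On chip B the counts were 134 higher (4.09%) and 159 lower (4.86%). The median intensity of the probe sets past 2-fold was 93 on chip A and 77.5 on chip B, against 195 and 183 over all kept probe sets. Values below a floor of 0.1 times the trimmed array mean, 14.9 on either chip, were set to it, and 11 and 65 of these probe sets had a value below that floor on the fish oil or the control array.

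**Figure D1:**
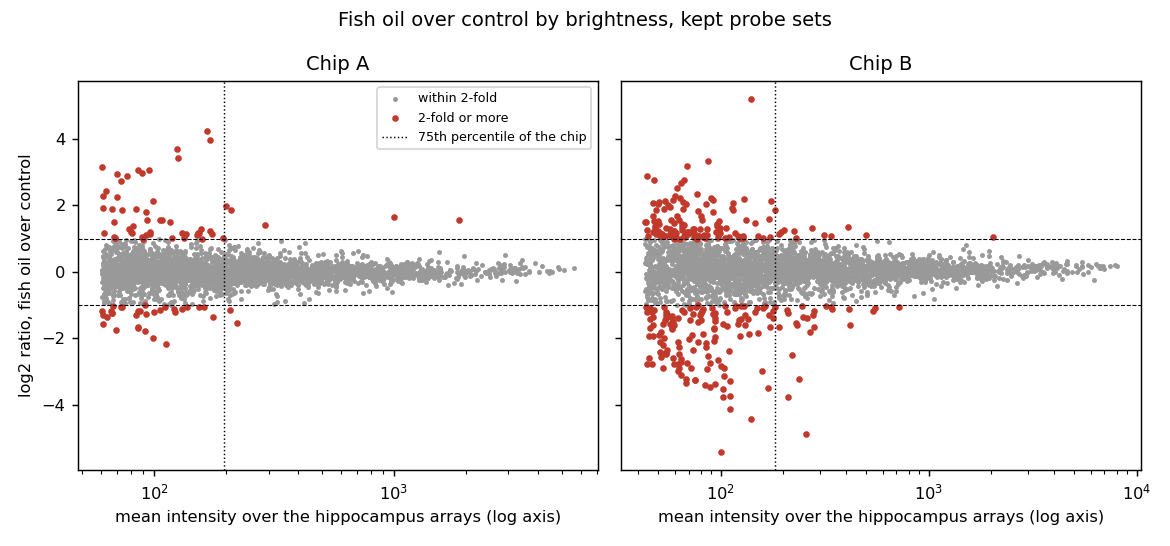
Each point is a kept probe set of chip A (left) or chip B (right): the x axis is its mean intensity over the hippocampus arrays (log axis, arbitrary units), the y axis its log2 ratio of fish oil to control, with dashed lines at 2-fold. Probe sets past 2-fold, in red, crowd to the left of the dotted line at the 75th percentile, with 7 of them to its right on chip A and 35 on chip B.

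Bright probe sets, those whose mean reached the 75th percentile of their chip, passed 2-fold in 7 of 1633 on chip A (0.429%) and 35 of 1635 on chip B (2.14%). On the same terms, the 2 liver control RNAs, which were fed the same diet, differed by 2-fold in 16 of 1633 bright probe sets on chip A and 56 of 1636 on chip B. The standard deviation of the log2 difference over bright probe sets was 0.25 (chip A) and 0.38 (chip B) between fish oil and control, and 0.28 and 0.44 between the liver controls. The hippocampus arrays of the 2 diets thus lay no further apart than the only pair of arrays of a shared diet and tissue did, though that pair is of another tissue. Over all kept probe sets, 90.4% on chip A and 79.5% on chip B stayed within 1.5-fold of control.

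The arrays of the other diets show how each chip's fish oil array sat. On chip A the fungal oil and fish oil arrays were the closest pair, with 2 bright probe sets past 2-fold, against 15 between control and fungal oil. The control array was thus the one furthest from the other chip A arrays. On chip B the fish oil array correlated least with each of the other 3, at r from 0.917 to 0.929 over log2 intensities of the kept probe sets, where the other pairs reached 0.941 to 0.947. Control, fungal oil and both oils differed from each other by 2-fold in 197 to 218 kept probe sets, and the fish oil array differed from them in 248 to 294.

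With each gene taken at its brightest kept probe set, 163 of 3525 genes (4.62%) read at least 2-fold away from control, 82 higher and 81 lower. For 35 of these 1 side was below the floor, 12 among the higher and 23 among the lower. Only 16 were bright. Higher among them were Tubg2, Kmt2e, Eif1b and Ptgds on chip A and Dcn, Cdx2, Id1, Acta2 and Ccn3 on chip B, and lower were Dtx1 and Ifitm10 on chip A and Rcan1, Dct, Dazap1, Notch1 and Timp2 on chip B. In all, 87.7% of the genes were within 1.5-fold of control.

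To narrow the genes to those extreme on the fish oil array, its reading was also required to lie outside the range of control and fungal oil. That left 1148 genes above both (32.6%) and 1050 below both (29.8%). Some array has to be the highest and some the lowest at a gene, so these shares alone are no result about fish oil. Genes at which the control array stood apart, such as Tubg2 and Ifitm10 below, can also pass this rule. The 12 bright genes furthest above control on these terms spanned log2 ratios of 0.76 to 1.97, of which 4 were past 2-fold, and the 12 furthest below spanned -1.65 to -0.88, of which 7 were. They were picked for these ratios, which are given as a description.

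Among the bright genes higher with fish oil, Tubg2, a gamma-tubulin that nucleates microtubules, read 79 in control, 209 with fungal oil and 309 with fish oil, a log2 ratio to control of 1.97. Eif1b, a relative of the translation initiation factor that guides start codon choice, read 424, 1243 and 1336 (1.66). At both, the control array was the low one and the fungal oil array lay nearer to fish oil. Against the mean of the control and fungal oil arrays, the log2 ratios were 1.27 for Tubg2 and 0.88 for Eif1b. The probe set of Eif1b on chip B, the same gene and RNAs, read 671 in control, 597 with fungal oil, 630 with fish oil and 613 with both oils, a ratio of -0.09.

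Nkain1, whose product binds the sodium pump, read 127, 217 and 247 in control, fungal oil and fish oil (0.96), and a further probe set of it 161, 155 and 179 (0.15). Inpp5j, a phosphatase of inositol phospholipids, read 285, 470 and 524 (0.88). Against the mean of control and fungal oil these ratios were 0.57 and 0.52, again with the control array low. Abcb8, a transporter of the mitochondrial inner membrane, read 201, 247 and 368 (0.87). Casp9, the initiator caspase of the mitochondrial death pathway, read 144, 216 and 253 (0.81), and Ppp1r18, a regulatory subunit of protein phosphatase that binds actin, 156, 228 and 264 (0.76). Apart from the further probe set of Nkain1, the fungal oil reading lay between the others at these genes of chip A.

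On chip B the fish oil array was the high one on its own. Id1, an inhibitor of basic helix-loop-helix transcription factors, read 148 in control, 169 with fungal oil, 344 with fish oil and 238 with both oils, a log2 ratio of 1.22 to control. Cds2, which makes CDP-diacylglycerol for the synthesis of phosphatidylinositol, read 223, 199, 418 and 248 in the same order (0.91). Both genes were highest on the fish oil array, with the array of both oils second.

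Cdx2, an intestinal homeobox transcription factor, read 178, 296, 447 and 174 (1.33), and Fxr1, an RNA-binding relative of the fragile X protein, 180, 234, 326 and 159 (0.86). The array of both oils, whose mice also ate the fish oil, was the lowest of the 4 at these genes. Cyct, the cytochrome c of testis, read 226, 216, 442 and 240 (0.97), and its other probe set, dim, read 44, 63, 29 and 42 (-0.60). The probe sets of Cyct thus pointed opposite ways.

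Among the bright genes lower with fish oil, Timp2, an inhibitor of metalloproteinases, read 283 in control, 383 with fungal oil, 90 with fish oil and 371 with both oils (-1.65). Notch1, the receptor of a cell contact pathway that keeps neural progenitors from differentiating, read 265, 329, 88 and 251 (-1.59). On both, the fish oil array alone was low. Dtx1, a ubiquitin ligase that binds Notch receptors, was measured on chip A and read 272 in control, 223 with fungal oil and 124 with fish oil (-1.13).

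Dazap1, an RNA-binding protein of splicing and translation, read 384, 341, 155 and 233 on the 4 arrays of chip B (-1.31). Dct, an enzyme of melanin synthesis, read 568, 461, 253 and 872 (-1.17), lowest with fish oil and highest with both oils. Rcan1, an inhibitor of the calcium-dependent phosphatase calcineurin, read 304 in control, 258 with fungal oil, 138 with fish oil and 130 with both oils (-1.14). It was the only bright gene of these for which both arrays of fish oil diets lay at about the same low level, apart from the arrays without it.

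Ifitm10, of the interferon-induced transmembrane family, read 387 in control, 145 with fungal oil and 134 with fish oil (-1.53), so that the control array was the high one, and its ratio to the mean of control and fungal oil was -0.82. Aqp4, the water channel of astrocyte endfeet, read 484, 312 and 263 on chip A (-0.88). Its chip B probe set read 296, 258, 264 and 290 on control, fungal oil, fish oil and both oils (-0.17), the same side but a smaller difference. Gpr162, an orphan receptor, read 496, 512 and 260 (-0.93) and Epha8, an ephrin receptor, 240, 243 and 130 (-0.88), each with control and fungal oil alike. Stk25, a kinase of the Golgi and of neuronal polarity, read 430, 318 and 232 (-0.89).

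Ttr, the carrier of thyroxine and retinol that choroid plexus secretes, read 304 in control, 490 with fungal oil and 157 with fish oil (-0.95). Of the 12 choroid plexus markers listed, 7 were on the arrays and 3 were kept, and all 3 were below control on the fish oil array: beside Ttr, Kl read 145, 221 and 119 and Igfbp2 124, 222 and 121. Their summed level was 573 in control, 933 with fungal oil and 397 with fish oil, with a median log2 ratio to control of -0.29. Without Ttr, which was picked for its low ratio, the sum was 269, 443 and 240. Ptgds, of meninges and choroid plexus but listed under meninges, was above control (1.56). Folr1, Slc4a5, Cox8b and Aqp1 did not pass the filter, and without a filter the median of the 7 choroid plexus markers was -0.04. The part of this tissue in the reading of Ttr was not tested, and in such bulk tissue fewer cells of a type and less RNA per cell cannot be told apart.

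**Figure D2:**
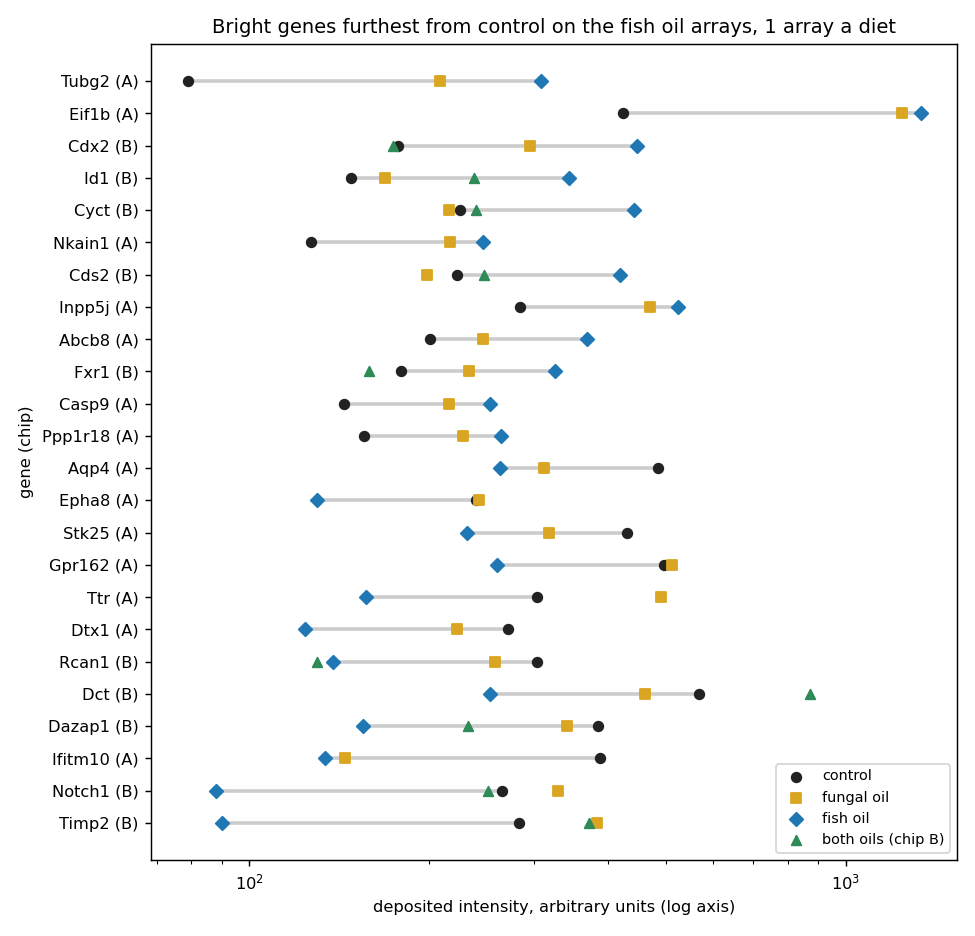
For the 24 bright genes furthest from control, the x axis gives the deposited intensity (log axis, arbitrary units) on the control, fungal oil, fish oil and, for chip B genes, both oils array, 1 array each, with a bar from control to fish oil. At Tubg2, Eif1b and Ifitm10 the fungal oil array lay near fish oil and away from control, at Timp2, Notch1 and Gpr162 near control, and at Rcan1 the both oils array joined the fish oil array.

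On chip B the addition of fish oil could be measured on a second pair of arrays, both oils against fungal oil, which shares no array with fish oil against control. In that pair 197 kept probe sets (6.02%) were at least 2-fold apart, and only 17 (0.519%) were 2-fold apart the same way in both pairs, 8 higher and 9 lower, which is 5.80% of the 293 probe sets of the first pair and 8.63% of the 197 of the second. A further 38 were past 2-fold in opposite ways, 15 higher and then lower and 23 lower and then higher. Of the 293, 116 had the same sign in the second pair and 174 the opposite one. Over all kept probe sets the log2 ratios of the pairs correlated at r = -0.13 across probe sets, which are not replicates, and 45.0% shared a sign. Differences between fish oil and control on chip B were thus mostly not repeated when fish oil was added to fungal oil.

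**Figure D3:**
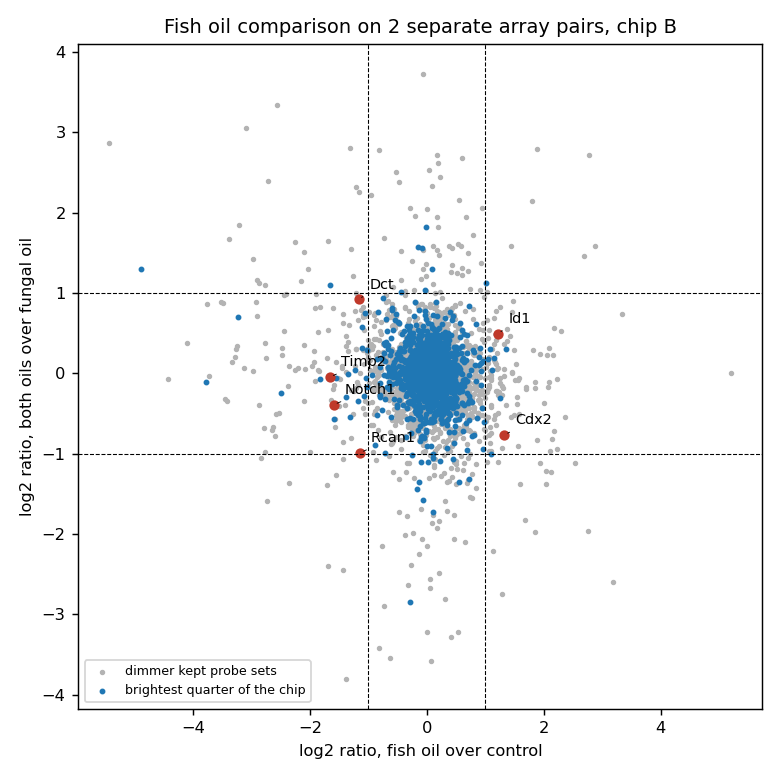
Each point is a kept probe set of chip B: the x axis is its log2 ratio of fish oil to control and the y axis its log2 ratio of both oils to fungal oil, with dashed lines at 2-fold and the bright probe sets in blue. The cloud has no upward slope (r = -0.13); Rcan1 lies to the lower left at -1.14 and -0.99, while Cdx2 (1.33 and -0.77) and Dct (-1.17 and 0.92) lie in opposite corners.

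Bright probe sets past 2-fold were fewer and shared a sign in 23 of 35, beside 45.9% of all bright probe sets, although only 1, without a gene symbol, passed 2-fold in both pairs. Of the 17 probe sets past 2-fold the same way, 6 have a gene symbol and all 6 are dim. Ercc1, a nuclease subunit of nucleotide excision repair, read 39 in control, 36 with fungal oil, 135 with fish oil and 159 with both oils, and Hoxc8, a homeobox factor of the trunk, 16, 37, 103 and 102. Lower were Pkp1, a desmosome protein (137, 139, 42 and 53), Bmp1, a protease that processes procollagen (141, 209, 48 and 87), and St8sia5, a sialyltransferase of gangliosides (128, 207, 49 and -8). Il6st, the shared receptor chain of the interleukin 6 family, read 106, 196, 5 and 94 on chip B, and its log2 ratio of fish oil to control on chip A was 0.16, on the other side. At Ercc1, Hoxc8 and Pkp1 the arrays with and without fish oil formed separate groups, near the low end of the scale.

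On chip B, both arrays of fish oil diets read above both of the others in 554 kept probe sets (16.9%) and below both in 430 (13.1%). Ranked by the smaller of the 2 log2 ratios, the bright gene furthest down in both pairs was Rcan1, at -1.14 and -0.99, followed by Dazap1 (-1.31 and -0.55) and Itih1, a plasma protein that binds hyaluronan (245, 308, 172 and 231, ratios -0.51 and -0.42). Furthest up were Pold2, a subunit of DNA polymerase delta (178, 181, 270 and 262, with ratios of 0.60 and 0.53), Id1 (1.22 and 0.49) and Cryab, a small heat shock protein (507, 404, 693 and 661, ratios 0.45 and 0.71). The dimmer probe set of Pold2, read at 48, 80, 67 and 114, gave 0.48 and 0.51, and so agreed in sign in both pairs.

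St8sia3, which adds sialic acid chains in brain, read 276, 283, 410 and 386 on control, fungal oil, fish oil and both oils. Degs1, the desaturase that makes ceramide from dihydroceramide, read 725, 720, 548 and 548. At each of these genes the arrays without fish oil lay close together and those with it lay apart from them, yet a second probe set of Degs1 read 293, 233, 320 and 243 (0.13 and 0.06), on the other side. The remaining genes higher in both were Sub1, Ssr4, Fbl and Cct7, with ratios of 0.32 to 0.66, and those lower in both were Top3b, Ppp2r5d and Tex261, with ratios of -0.27 to -0.75, and Notch1 (-1.59 and -0.39). Of the 16 genes, 4 have a kept probe set on chip A, and there each of the 4 had the other sign: Cryab (488, 399 and 459 in control, fungal oil and fish oil; -0.09), Sub1 (172, 201 and 162; -0.09), Ssr4 (159, 136 and 92; -0.79) and Tex261 (110, 157 and 138; 0.33).

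Because Rcan1 was the bright named gene furthest down by the smaller of its 2 ratios, the promoters of its 2 transcripts with a RefSeq entry are shown. Both lie on the minus strand of chromosome 16 in GRCm38.p6, the first at chr16:92466120-92466419 and the second, inside the gene, at chr16:92400029-92400328. Each runs from 250 bases before the transcript's start to 50 after it. Calcineurin activates the transcription factors of the NFAT family, whose core element is GGAAA, and transcription from the downstream start of Rcan1 is known to respond to them. Capitals mark GGAAA or, for the other strand, TTTCC, with no overlap between matches.

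Rcan1 upstream start: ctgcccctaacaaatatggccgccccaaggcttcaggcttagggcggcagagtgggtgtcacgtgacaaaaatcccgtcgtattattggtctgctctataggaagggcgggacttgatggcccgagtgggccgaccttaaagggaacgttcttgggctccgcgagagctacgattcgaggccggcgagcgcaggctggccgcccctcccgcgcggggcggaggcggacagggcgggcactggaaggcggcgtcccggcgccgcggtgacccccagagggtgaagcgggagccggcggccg
Rcan1 downstream start: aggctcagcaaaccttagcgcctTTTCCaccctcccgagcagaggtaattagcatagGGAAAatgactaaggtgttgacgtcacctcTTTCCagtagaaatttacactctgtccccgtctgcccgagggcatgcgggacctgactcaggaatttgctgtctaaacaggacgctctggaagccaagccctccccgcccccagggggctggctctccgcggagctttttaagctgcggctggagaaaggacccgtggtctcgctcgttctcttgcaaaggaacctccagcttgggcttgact

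The upstream window held 0 matches and the downstream window 3, of which 1 was on the strand of the transcript and 2 on the other. Of 32851 promoters of the same length, 61.3% held at least 1 match, 26.7% at least 2 and 9.42% at least 3. A match is a description of letters and not a site, and which transcript the probe set detects was not determined. The catalytic subunit gene of calcineurin in the lists, Ppp3ca, read 1926 in control, 1797 with fungal oil and 1918 with fish oil (-0.01), nearly the same on the control and fish oil arrays.

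Different probe sets for the same gene did not share their differences either. Of 173 genes with a kept probe set on both chips, hybridised with the same RNAs, 14 were past 2-fold on either chip and 0 on both the same way. The log2 ratios of the chips correlated at r = -0.17 across genes, and 80 of 173 shared a sign. Among the 83 that were bright on both chips, r was -0.03. Within chip A, the brightest 2 probe sets of 279 genes gave r = 0.12, with 51.3% sharing a sign and 0 genes past 2-fold on both the same way, and within chip B those of 93 genes gave r = 0.07, with 58.1% sharing a sign and 2 such genes. A large ratio at a probe set was thus seldom repeated by another probe set for that gene.

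**Figure D4:**
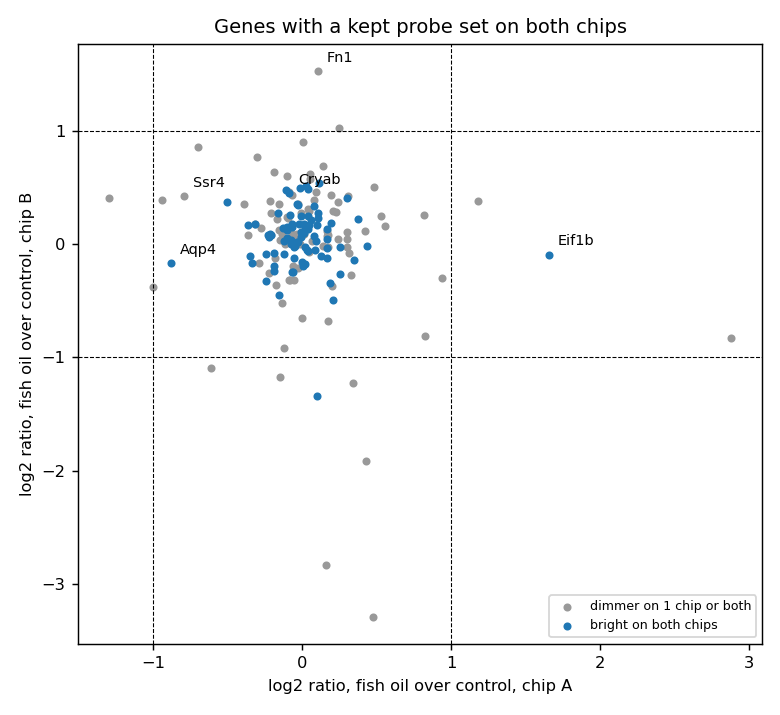
Each point is 1 of the 173 genes with a kept probe set on both chips: the x axis is the log2 ratio of fish oil to control on chip A and the y axis that on chip B, with dashed lines at 2-fold and genes bright on both chips in blue. The corner areas past 2-fold the same way on both chips hold 0 genes; Eif1b, at 1.66 on chip A, lies at -0.09 on chip B, and Aqp4, at -0.88, lies at -0.17.

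At a set of genes the control array was far from the fungal oil and fish oil arrays alike, all of which were compared with that same control array. Ptgds, the prostaglandin D synthase of meninges and choroid plexus, read 624 in control, 3118 with fungal oil and 1843 with fish oil (1.56). Dcn, the proteoglycan decorin of connective tissue, read 138, 511, 351 and 631 on the 4 arrays of chip B (1.35), and Acta2, the actin of smooth muscle, 112, 598, 240 and 298 (1.10). Ccn3, a matricellular protein, read 144, 408, 304 and 504 (1.08). At each of these the control array was the lowest and the fish oil array came next.

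Of 8 kept markers of meninges and connective tissue, a list that holds Ptgds and Dcn, 7 were above control with fish oil and the median log2 ratio was 0.35, against 49.5% above and a median of 0.00 over all 3525 genes. The summed level of the list was 1130 in control, 4180 with fungal oil and 2430 with fish oil on chip A, and 552, 1211, 876 and 1325 on chip B in the order control, fungal oil, fish oil and both oils. Ptgds made up most of the chip A sum, which without it was 506, 1062 and 587. Fn1, fibronectin, read 34, 126, 98 and 136 on chip B (1.53) and 52, 82 and 56 on chip A (0.11). Against the mean of the control and fungal oil arrays the median of the list was -0.04. How much of these membranes the dissected tissue held was not measured, and its part in the readings was not tested.

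Josd2, a deubiquitinase, read 14 in control, 205 with fungal oil and 282 with fish oil, at least 18.9-fold higher with fish oil, taking the control value at the floor. Entpd6, a nucleotidase, read -35, 316 and 232, at least 15.5-fold higher, and Vamp3, a vesicle fusion protein, 1, 182 and 192, at least 12.9-fold. On all 3 the control array stood alone. On chip B the fish oil array was the one below the floor at Mapkapk2, a kinase downstream of p38 (256, 174, -215 and 226, at least 17.2-fold lower), and at Rxra. Of the 23 lower genes with only a bound, all were on chip B and had the fish oil array below the floor.

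Over all 31 gene lists, 351 of 640 genes were kept, 11 (3.13%) were past 2-fold, beside 4.62% over all genes, and 92.0% were within 1.5-fold of control. In the 6 lists of lipid genes, through which a dietary fatty acid would be handled and sensed, 54 genes were kept, 31 were above control and the median log2 ratio was 0.05. Past 2-fold were 5 of the 54 (9.26%), Hadh, Ptgds, Ptges, Ppara and Rxra, of which 4 are dim, and 46 (85.2%) were within 1.5-fold, beside 87.7% over all genes. The sign of small ratios depends on scaling: with each chip centred on its median, 24 of the 351 list genes changed sign, the largest of their ratios being 0.06 in size. The medians of the lists ranged from -0.29 to 0.35.

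**Figure D5:**
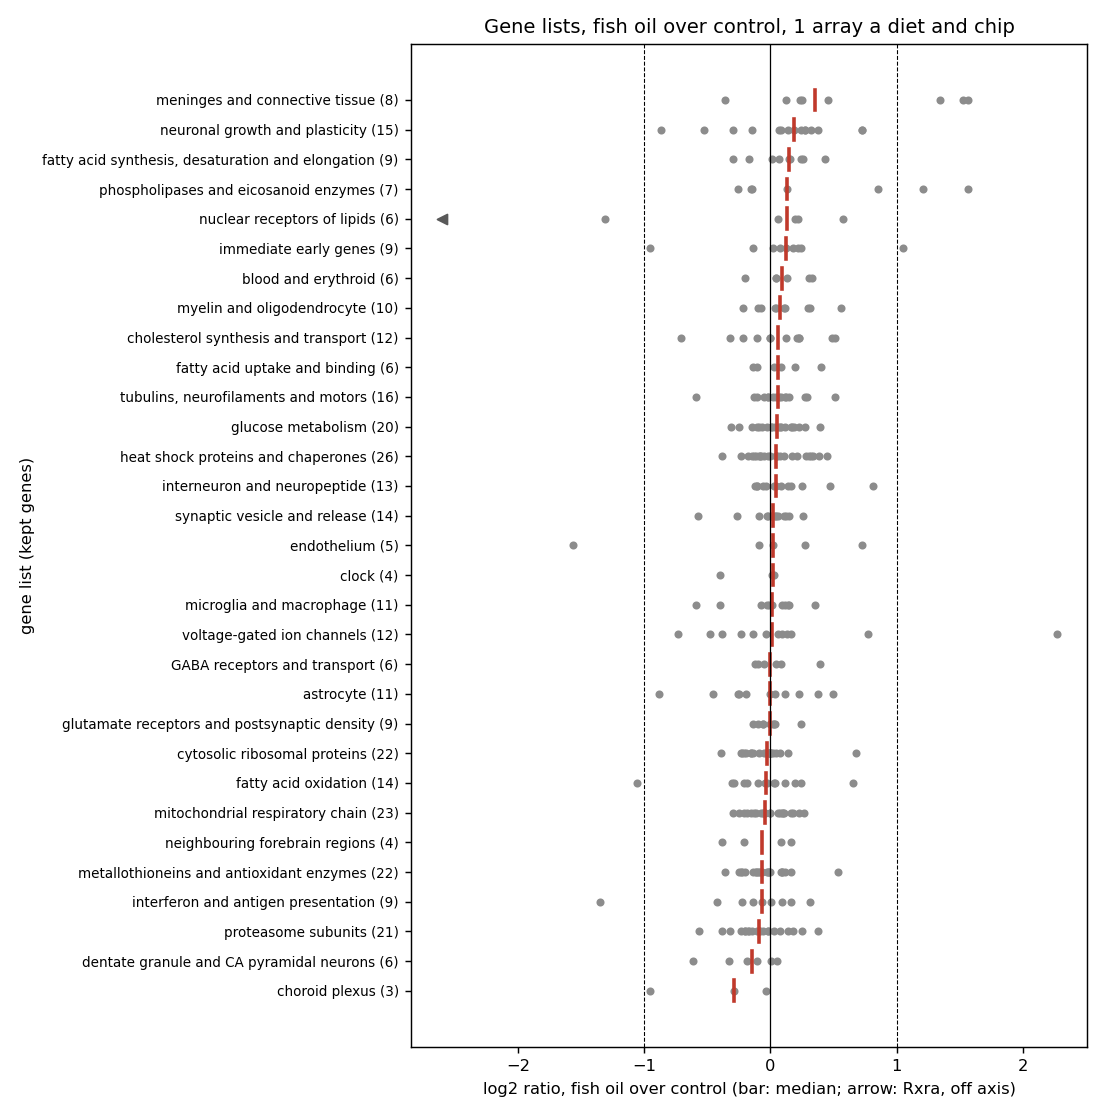
Each row is a gene list with the number of its kept genes, each grey point a gene at its log2 ratio of fish oil to control (x axis, 1 array a diet and chip), and the red bar the list's median; dashed lines mark 2-fold. The medians run from -0.29 for choroid plexus to 0.35 for meninges and connective tissue, and the signs of those for fatty acid uptake, interneuron and clock genes turn when each chip is centred on its median.

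Of 6 kept genes of fatty acid uptake and binding, 4 were above control and 0 past 2-fold, with a median log2 ratio of 0.06, or -0.01 with each chip centred on its median. Fabp5, the binding protein that carries DHA into brain endothelium and neurons, read 807 in control, 783 with fungal oil, 823 with fish oil and 823 with both oils. Fabp7, the form of radial glia and astrocytes with a high affinity for DHA, read 416, 433 and 379 in control, fungal oil and fish oil. Fabp3 read 324, 468 and 427, and Dbi, which binds acyl-CoA, 1127, 1027, 1287 and 1177 on chip B. At Fabp5 and Dbi both fish oil arrays were above both others, as at 16.9% of all kept probe sets of chip B. Their log2 ratios to control were 0.03 and 0.19, that of Fabp5 being below the chip B median of 0.07.

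Of 9 genes of fatty acid synthesis, desaturation and elongation, 7 were above control and 0 past 2-fold (median 0.15). Fasn, the fatty acid synthase, read 645, 666, 718 and 521 on chip B, highest with fish oil and lowest with both oils. Scd2, the main brain stearoyl-CoA desaturase, read 1673, 1721 and 1758 (0.07), and Scd1 478, 404 and 572 (0.26). Elovl2, the elongase of the pathway that makes DHA, was dim at 82, 40 and 97. Acly, which supplies acetyl-CoA for lipid synthesis, read 461, 420 and 464 on chip A (0.01) and 32, 71, 60 and 55 on a dim chip B probe set (0.91).

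Of 14 fatty acid oxidation genes, 6 were above control and 8 below, with a median of -0.03. Hadh, the mitochondrial 3-hydroxyacyl-CoA dehydrogenase, was the only member past 2-fold, at 221 in control, 135 with fungal oil and 106 with fish oil (-1.06). Acat1, which acts at the last step and on ketone bodies, read 191, 331 and 301 (0.66). Hadha, of the trifunctional protein, read 400, 220 and 411 (0.04), and Cpt1a, which admits fatty acids to mitochondria, 119, 158 and 136 (0.19). At Hadh and Acat1 the control array was again the one apart.

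The same 14 genes were above the mean of the liver controls in 13 cases in the liver RNA of mice fed fish oil. Their median there was 0.34, beside the hippocampus median of -0.03. The share of all liver genes above their controls is not given here. Other lists leaned either way in liver, with 19 of 23 respiratory chain genes above and 4 of 14 genes of glucose metabolism. The 8 synthesis genes measured in both tissues had a median of 0.15 in hippocampus and -0.21 in liver. The difference between the tissues was not tested. Of 2820 genes kept in both tissues, 109 were past 2-fold in hippocampus and 193 in liver, where 181 were past 2-fold between the 2 control RNAs themselves, and 8 were past it the same way in both tissues and 8 in opposite ways. Across these genes r was -0.02.

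Of 12 genes of cholesterol synthesis and transport, 6 were above and 6 below control (median 0.06) and 0 were past 2-fold. Hmgcs1, an early enzyme of cholesterol synthesis, read 615, 738 and 875 (0.51), with a dim probe set at 69, 82 and 108 on the same side, whereas Lss and Sqle, later in the pathway, lay below control at -0.22 and -0.32. A second, dim probe set of Lss read 40, 86 and 81, past 2-fold on the other side (1.02). Lrp1, a receptor of apolipoprotein E, read 830, 606, 509 and 793 (-0.71). Apoe, the main lipid carrier of brain, read 4125, 4720, 4838 and 4651 on chip B (0.23) and 2980, 3313 and 3204 on chip A (0.10). Apod, which binds arachidonate, read 550, 730, 772 and 732 (0.49) and on its second probe set 325, 423, 575 and 456 (0.82). At Apoe and Apod control was the lowest array on each probe set.

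Of 7 kept phospholipase and eicosanoid genes, 4 were above control (median 0.13). Beside Ptgds, given above, Ptges, the inducible prostaglandin E synthase, was past 2-fold and dim at 35, 69, 81 and 49 (1.21). Mgll, which releases arachidonate from an endocannabinoid in brain, read 939, 723 and 784 (-0.26), and Faah, which degrades another, 589, 539 and 532 (-0.15). Lta4h, of leukotriene synthesis, read 179, 177 and 196 (0.13).

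Of 18 nuclear receptors of lipids listed, 14 were on the arrays, 6 were kept and 4 of these were above control (median 0.13). The 2 below control, Rxra and Ppara, were both past 2-fold. Rxra, the partner of many such receptors and one that DHA can bind, read 171 in control, 104 with fungal oil, below the floor with fish oil and 193 with both oils, at least 11.5-fold lower with fish oil. Ppara, the receptor of fatty acids that drives their oxidation, read 114, 20, 46 and 139 (-1.31). At both genes the both oils array was the highest of the 4, so the 2 arrays of fish oil diets lay apart from each other. Thra, a thyroid hormone receptor, read 883, 853, 1011 and 851 (0.20), and Nr4a1 539, 576, 626 and 500 (0.22).

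Genes of synapses read nearly the same on the fish oil and control arrays, as most genes did. Over all neuronal lists, 83 of 93 kept genes (89.2%) were within 1.5-fold of control, beside 87.7% over all genes. Past 2-fold were 2 (2.15%), beside 4.62%. Both are dim, and bright probe sets of any kind passed 2-fold less often, in 0.429% on chip A and 2.14% on chip B. Of 14 kept genes of vesicles and release, 9 were above control and 0 past 2-fold (median 0.02). Syp, the vesicle protein synaptophysin, read 2738, 2844, 3032 and 2569 (0.15), Syt1, the calcium sensor of release, 579, 603 and 694 (0.26), and Cplx2, which clamps fusion, 661, 614 and 444 (-0.57). Of 9 genes of glutamate receptors and the postsynaptic density, 4 were above (median -0.01). Gria2, the AMPA receptor subunit that limits calcium entry, read 1943, 1993, 1986 and 1813 (0.03) and Dlg4, the main postsynaptic scaffold, 580, 611 and 687 (0.24). Of 6 genes of GABA receptors and transport, 3 were above (median 0.00), with Gad1, which makes GABA, at 1834, 1913, 1888 and 1837.

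Of 12 voltage-gated ion channel genes, 6 were above control (median 0.01). Cacna1c, an L-type calcium channel, was the only member past 2-fold and dim, at 22, 56 and 106 (2.27). Of 13 interneuron and neuropeptide genes, 8 were above control (median 0.04, or -0.03 with each chip centred on its median). Sst, somatostatin, a peptide of hippocampal interneurons, read 907, 1602, 1590 and 1930 on chip B (0.81) and 969, 1508, 1564 and 1795 on a second probe set (0.69), so that both probe sets placed the control array below the 3 oil arrays.

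Of 15 genes of neuronal growth and plasticity, 11 were above control and 0 past 2-fold, with a median of 0.19, the highest of the neuronal lists. Gap43, of growth cones, read 538, 589 and 594 (0.14), Stmn1, which destabilises microtubules, 619, 651, 774 and 687 (0.32) and Ncam1, an adhesion molecule, 528, 588, 640 and 609 (0.28). At these probe sets of Stmn1 and Ncam1 the fish oil array was the highest of the 4. The other 4 kept probe sets of Ncam1 were below control, at -0.25 to -0.01, the brightest of them at 330, 345, 278 and 342. Bdnf, the neurotrophin of activity-dependent plasticity, read 197, 173, 160 and 128 (-0.30). Both fish oil arrays were below both others there, as at 13.1% of all kept probe sets of chip B. Of 16 tubulin, neurofilament and motor genes, 10 were above (median 0.06), with Nefm at 255, 246, 363 and 256 (0.51) and Nefh at 290, 209 and 193 (-0.59).

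Of 9 immediate early genes, 7 were above control (median 0.13). Fosl2, a partner of Jun proteins, read 174, 167, 90 and 107 (-0.95). It too had both fish oil arrays below both others, the pattern of 13.1% of kept chip B probe sets. Egr1, which neuronal activity induces, read 365, 372 and 432 (0.24), and Jun 439, 550, 462 and 584 (0.07). Ier3 was past 2-fold and dim at 27, 111, 56 and 76 (1.05).

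None of the kept markers of hippocampal principal neurons or of glia was past 2-fold, beside 4.62% of all genes. Most of these markers are bright, and bright probe sets passed 2-fold in only 0.429% on chip A and 2.14% on chip B. Camk2a, on the list of principal neurons but not kept, read 100 in control and below the floor with fish oil. Of 6 dentate granule and CA pyramidal markers, 2 were above control (median -0.15), with summed levels of 2165 in control, 1926 with fungal oil and 2102 with fish oil on chip A. Lmo4, the only kept member on chip B, read 581, 482, 379 and 582 (-0.62). Of 4 markers of neighbouring forebrain regions, 2 were above (median -0.06), with sums of 1595, 1818, 1555 and 1685 on chip B. Of 10 myelin and oligodendrocyte markers, 7 were above (median 0.07), with sums of 3566, 3591 and 3896 on chip A, Mobp at 1005, 937 and 1088 and Mag at 223, 312 and 328. The fish oil array of chip A thus had the highest myelin sum of the 3.

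Of 11 astrocyte markers, 5 were above control (median 0.00), with sums of 5896, 6189 and 5433 on chip A and 5855, 6767, 6642 and 6339 on chip B. Gfap, the astrocyte intermediate filament, read 497, 468, 434 and 410 (-0.20). Of 11 microglia and macrophage markers, 6 were above (median 0.02), with chip A sums of 2209, 2255 and 2286. Their chip B sums were 1212, 1206, 1167 and 1236, lowest with fish oil. C1qc, of the complement protein C1q, read 229, 159, 152 and 278 (-0.59) and C1qa, another chain, 263, 217, 199 and 190 (-0.40). The third chain, C1qb, read 250, 279, 320 and 348 on chip B (0.36) and 200, 171 and 196 on chip A (-0.03). Of 6 blood and erythroid markers, 5 were above (median 0.09), with Hba-a1 at 2102, 3262, 2164 and 2535 (0.04) and, on a dimmer probe set, 136, 132, 100 and 111 (-0.44). Of 5 endothelial markers, 3 were above (median 0.02), with Kdr, a receptor of vascular endothelial growth factor, at 244, 371, 404 and 364 (0.73). Tie1 was the only endothelial member past 2-fold and dim, at 44, 111, -20 and 75 on chip B, at least 2.96-fold lower with fish oil.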

How the data were processed

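RNA was measured on 7 hippocampus arrays, grouped by the diets their titles and descriptions give. The values the authors deposited are intensity values, whole numbers of which some are negative. How they were corrected for background and scaled, and with which software, is not given in the sources used here. The mean of each hippocampus array after trimming 2% at each end lay between 148 and 149, so values were used as deposited.

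Control probe sets, 55 on either chip, entered no comparison, and the chip B fish oil array gave no values for them. Genes were named through the platform annotation: on chip A 5541 probe sets have 1 symbol, 197 several and 791 none, on chip B 2001, 27 and 4512. Values were floored, log2 ratios taken (Python 3.11.15, pandas 2.3.3, numpy 2.4.6) and a gene at the floor on 1 side given as a bound. The scripts were checked on made-up tables with known changes. With 1 array a diet no test was made, and precision is limited by the number of arrays.

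Named genes were the 12 bright genes furthest above and below control outside the range of control and fungal oil, on chip B also the 8 furthest each way by the smaller ratio of the 2 pairs, list members, and genes with a bound or past 2-fold. Kmt2e, Acta2, Ccn3, Josd2, Entpd6, Vamp3, Mapkapk2 and the 6 genes past 2-fold in both pairs were picked after their values were seen. The members and lists were chosen with earlier results of these data known. Promoters are those of RefSeq. Alternatives were other floors, filters, scalings, comparators and ways to represent a gene.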

Additional observations from a re-analysis of the deposited data

Results flagged for a closer look

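Among the bright named genes of chip B, 2 were at least 1.5-fold apart in opposite directions on the 2 pairs of arrays. Cdx2 had a log2 ratio of 1.33 for fish oil over control and -0.77 for both oils over fungal oil. Dct had -1.17 for fish oil over control and 0.92 for both oils over fungal oil. Fxr1 came close, at 0.86 and -0.56, and of all 35 bright probe sets past 2-fold between fish oil and control, 12 had the opposite sign in the other pair. With 1 array a diet, the difference between the pairs was not tested.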

How the results depend on the processing

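Counts past 2-fold depend on brightness. For fish oil against control they were 55 higher and 33 lower on chip A and 134 and 159 on chip B, and for both oils against fungal oil 197 on chip B. With bright probe sets alone they were 5, 2, 11, 24 and 24, and without a filter 203, 182, 293, 333 and 486, fewer and more probe sets entering by construction. Against the mean of the control and fungal oil arrays, 25 were higher and 17 lower on chip A, and 71 were higher on chip B; the cause was not tested. Other floors, median centring and quantile normalization kept these counts within 1.5 times. None of the 36 bright genes picked for their ratios changed sign under the alternatives run on them, which is no check of them. All had a fish oil reading outside the range of control and fungal oil, so against that mean no sign could change. Their readings lay above every floor tried. Median centring moved ratios by 0.07 at most, and the smallest of theirs was 0.27 in size. List medians changed sign in 25 of 279 values. Among them were meninges and connective tissue (0.35, and -0.04 against the mean of control and fungal oil) and eicosanoid enzymes (0.13, and -0.15 among bright genes). Leaving out replicates could not be done with 1 array a diet. No paired analysis was possible because each diet has 1 hippocampus RNA and the arrays carry no replicate numbers. Low signal over background and the lack of a second RNA of each diet limit every value given.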

Other observations

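Several lists of genes that every cell uses had fewer members above control than the 49.5% over all genes. Of 22 cytosolic ribosomal protein genes, 6 were above and 15 below control (median log2 ratio -0.03), of 23 respiratory chain genes 9 and 13 (-0.04), and of 21 proteasome subunits 6 and 15 (-0.09). None of these genes was past 2-fold. Psmb1, a catalytic-core subunit of the proteasome, read 1364 in control, 1155 with fungal oil, 1091 with fish oil and 1283 with both oils, and Ndufs4, of respiratory complex I, 666, 523 and 543 in control, fungal oil and fish oil. Of 22 metallothionein and antioxidant genes, 6 were above and 15 below (-0.07), with Gpx4, which reduces lipid peroxides in membranes, at 1421, 1287 and 1207 and Prdx3, a mitochondrial peroxidase, at 198, 228 and 167. The respiratory chain median was 0.0034 against the mean of control and fungal oil.

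Chaperone genes lay near that share and glucose metabolism genes above it. On chip A alone the medians of these lists were -0.02 and -0.01. Of 26 heat shock and chaperone genes, 14 were above control (0.04), with Hspa5, the chaperone of the endoplasmic reticulum, at 669, 669, 812 and 828 on chip B but 605, 510 and 542 on chip A. Of 20 genes of glucose metabolism, 13 were above (0.05), with Pkm at 3513, 3474, 4108 and 3436. Of 9 interferon and antigen presentation genes, 4 were above (-0.07), with Ifit3 past 2-fold and dim at 89, 67 and 35 and B2m at 430, 379, 320 and 398. Of 4 clock genes, 3 were above control (0.02, or -0.01 with each chip centred on its median), with Dbp at 111, 206 and 84 in control, fungal oil and fish oil.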
